A study of Bos taurus with 8 samples.

Results

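The region described here is the major histocompatibility complex (MHC) of cattle, also called the bovine leukocyte antigen complex, with its flanks. Its members were the loci with a gene entry in the expression table that lie wholly between 25000000 and 29000000 on chromosome 23 of the UMD3.1 assembly. There were 147 such loci among 24886 named loci in all, and the other 634 named loci of chromosome 23 served as a second point of comparison. The members are called locus 1 to locus 147 here, in order along the chromosome, and coordinates are given as in the table.

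RNA-Seq libraries of 8 cattle tissues were compared, with 1 library per tissue. The labels name whole testes, frontal cortex, uterus intercaruncular (uterus), mammary/parenchyma (mammary gland), abomasum (the acid-secreting stomach), ileum, nucleated blood cells and rumen (the fermenting forestomach). No treatment separated the groups, and the labels of the RNA libraries give neither the age nor the sex of an animal. The study's list of samples for methylation names the same tissues and gives testes, uterus and blood cells as adult, mammary gland, frontal cortex, abomasum and ileum as juvenile, and rumen as fetal, so tissue, age and animal cannot be told apart.

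The MHC is one of the most gene-rich parts of a mammalian genome. Class I molecules are made by nearly all nucleated cells and present peptides from inside the cell to cytotoxic T cells, while class II molecules are made mainly by B cells, macrophages and dendritic cells and present peptides from outside the cell to helper T cells. Class III lies between them and holds genes of complement and of cytokines beside many genes with no immune role. In cattle an inversion has split class II, so that class IIa stays beside class III and class IIb lies elsewhere on the chromosome. In the RefSeq gene table of the later assembly ARS-UCD2.0, the neighbours run from class II genes (BOLA-DQA2, BOLA-DQB, BOLA-DRB3, BOLA-DRA) and BTNL2 through NOTCH4, AGER, TNXB, C4A, CFB, C2, LST1, LTB, TNF and LTA to a class I gene (BoLA), POU5F1, DDR1, FLOT1, TUBB and ABCF1. Further class I genes (BOLA-NC1 and BOLA), genes of the TRIM family, MOG, GABBR1 and UBD follow.

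This order belongs to another assembly and gives no locus of the table its name. The members carry 169 Ensembl transcript identifiers, of which 0 matched a symbol in the RefSeq table, so loci are described by their position and level. Lists of MHC genes and of cell type markers, leukocyte markers included, are for this reason not analysed here. Of the members, 19 name several transcripts and 69 share their listed span with another member, in 25 spans, and 7 identifiers stand at more than 1 member. Levels of overlapping loci, and of near-identical copies such as MHC genes often are, are therefore uncertain.

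Levels are FPKM, which relates the fragments counted at a locus to its length and to the size of the library, so they can be compared between loci. The depth recovered from short loci without a gene entry was lowest in mammary gland, at 6082000 reads, and highest in rumen, at 15610000, on the scale of the authors' software. On a 1000-base transcript, 1 FPKM was worth 4.42 to 11.3 reads, and the limit that a count of 0 allows, 3 reads, was 0.264 to 0.679 FPKM. These limits cover counting error only. With 1 library per tissue, no difference between tissues has a replicate check and no test was run. In a whole tissue, fewer cells of a type and less RNA per cell cannot be told apart.

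Loci reaching 1 FPKM were called expressed. Of the 147 loci, 118 (80.3%) were expressed in at least 1 tissue, 70 (47.6%) in all 8 tissues, and 29 in none. Across all named loci 35.8% were expressed in all 8 tissues and 29.7% in none, and in the rest of chromosome 23 the share expressed in all 8 was 32.6%. A total of 20 members (13.6%) were listed at 0 in every library, against 23.6% of all named loci. In exactly 1 tissue, 11 members (7.48%) were expressed, against 9.98% of all named loci. The region thus held more broadly expressed and fewer silent loci than the table as a whole.

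By tissue, ileum had the most expressed members, 101 (68.7%, against 52.9% of all named loci). Abomasum had 93 (63.3%, against 51.0%), whole testes 92 (62.6%, against 58.2%), and uterus and mammary gland 91 each (61.9%, against 51.8% and 51.2%). Frontal cortex, rumen and blood cells had 86 each (58.5%), against 51.7%, 48.4% and 45.0% of all named loci. In each of the 8 tissues the share was thus above that of all named loci, by the smallest margin in testes. The counts in the 7 tissues other than ileum lay between 86 and 93.

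**Figure D1:**
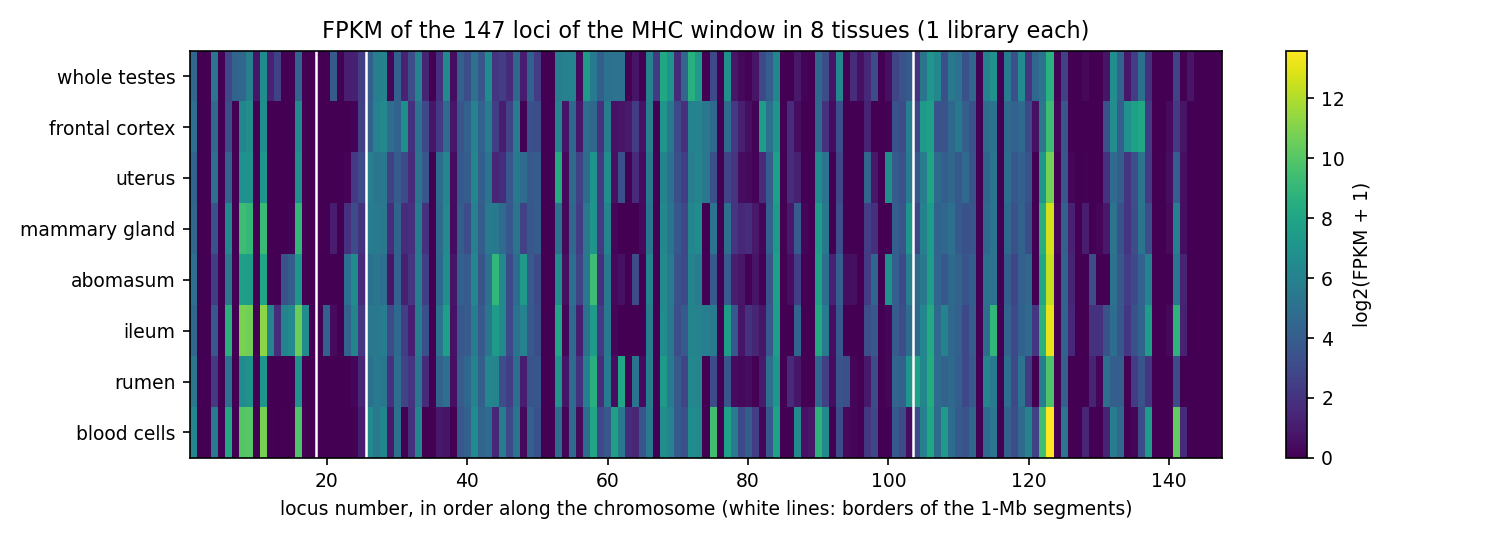
Level of each of the 147 loci (columns, in order along the chromosome) in the library of each tissue (rows), as log2(FPKM + 1) by colour. White lines mark the borders of the 1-Mb segments. The bright columns at loci 8, 9, 11 and 16 and at locus 123 are brightest in ileum and blood cells, and the block from locus 26 onward holds many columns of like colour in all rows.

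From one end to the other, the 4 segments of 1 Mb differed. A locus was counted in the segment that holds its start, and loci 17 and 18 reach from the first segment into the next. The first, from 25 to 26 Mb, held 18 loci, of which 13 were expressed somewhere and 7 in all tissues. The segment from 26 to 27 Mb was nearly empty, with 7 loci, 5 expressed somewhere and 1 in all tissues. From 27 to 28 Mb there were 78 loci, of which 68 were expressed somewhere and 39 in all tissues. The last segment, to 29 Mb, held 44 loci, 32 of them expressed somewhere and 23 in all tissues.

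The level of the region depended on the tissue far more than the count of expressed loci did. The summed FPKM of the 147 loci was 24273 in blood cells and 22545 in ileum, 11858 in mammary gland and 10468 in abomasum, 5199 in uterus, 4921 in rumen, 4314 in frontal cortex and 4136 in testes. As a share of the summed FPKM of all named loci, this was 2.97% in blood cells, 2.78% in ileum, 1.74% in mammary gland, 1.28% in abomasum, 0.982% in uterus, 0.721% in frontal cortex, 0.501% in testes and 0.407% in rumen. The order of these shares depended on which loci were summed. Ileum stood above blood cells without the highest member (1.65% against 1.46%), over loci naming a single transcript (1.30% against 1.10%) and over loci with or without a gene entry (2.45% against 2.37%). For the last set the total, too, was taken over loci with or without a gene entry, so its shares have another base. On that base abomasum, at 0.444%, lay below uterus and frontal cortex, at 0.907% and 0.668%. The share in abomasum was lower although loci without a gene entry added 23897 FPKM to the region there. Most of the spread of the summed FPKM of the 147 loci came from a few loci. The 8 highest members held 81.9% of the region in blood cells and 79.3% in ileum but 43.1% in testes and 45.8% in frontal cortex.

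**Figure D2:**
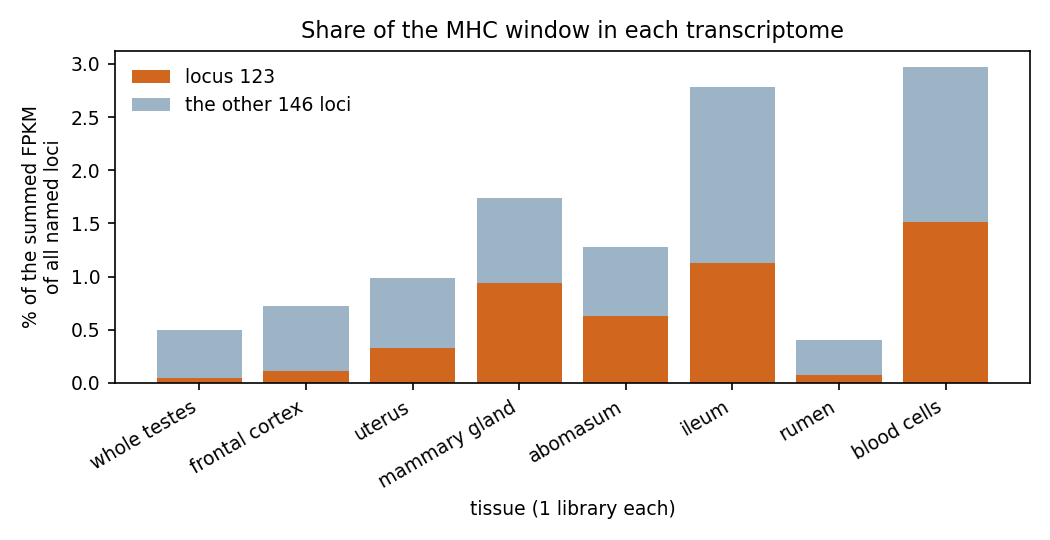
Summed FPKM of the region as a percentage of the summed FPKM of all named loci, in the library of each tissue, split into locus 123 and the other 146 loci. The bars reach 2.97% in blood cells and 2.78% in ileum and stay under 1% in testes, frontal cortex, uterus and rumen.

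A single locus led the region in every tissue. Locus 123, from 28468650 to 28506317, names 2 transcripts. Its FPKM was 12343 in blood cells, 9155 in ileum, 6414 in mammary gland, 5159 in abomasum, 1710.1 in uterus, 891 in rumen, 669 in frontal cortex and 404 in testes. Among all named loci this ranked as number 3 in blood cells, number 4 in both ileum and mammary gland, number 14 in abomasum and number 33 in uterus. It ranked only as number 121 in frontal cortex, 178 in rumen and 204 in testes. The highest value was 30.6 times the lowest, yet in no tissue was the locus low, and it alone made up 50.9% of the summed FPKM of the region in blood cells and 54.1% in mammary gland.

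A few other members had a similar order of tissues. The Pearson r with locus 123 over the 8 tissues, on log2(FPKM + 1), was at least 0.9 for 9 of the other 117 expressed members (7.69%), against 0.789% of 17366 expressed loci outside the region. The median r was 0.07 over the members and -0.19 over the other loci, so most of the region did not follow locus 123. These correlations rest on 8 points that share their libraries. Without frontal cortex, 5 members instead of 9 reached 0.9. The 9 loci lay in 2 places, 5 of them between 25 and 26 Mb and 4 of them between 27 and 29 Mb.

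The first place is the stretch from 25351282 to 25865701, which holds several of the 6 members that reached 1000 FPKM in some tissue, a level reached by 1.17% of all named loci. Locus 11 (ENSBTAT00000014072, 25584312 to 25592230) had an FPKM of 2404 in ileum, 1781 in blood cells, 625 in mammary gland, 264 in abomasum, 138 in rumen, 137 in uterus, 109 in frontal cortex and 96.0 in testes. Locus 8 (25351282 to 25430297), which names 5 transcripts, had 1828 in ileum, 1003 in blood cells, 667 in mammary gland, 207 in abomasum, 116 in uterus, 91.5 in rumen, 74.7 in frontal cortex and 21.9 in testes. Both were thus highest in ileum, then in blood cells and mammary gland, and lowest in testes. Locus 9 (25458552 to 25479203) ran from 60.2 in testes to 1662 in ileum, with 1075 in blood cells and 540 in mammary gland. Locus 16 (25845389 to 25865701) ran from 20.6 in testes to 1438 in ileum, with 938 in blood cells and 502 in mammary gland. Locus 6, which shares the span of locus 8, had the same 4 leading tissues at lower levels, from 6.77 in testes to 396 in ileum. All 5 were highest in ileum and lowest in testes, and the ratio of the highest to the lowest tissue was 25.04 at locus 11 and 83.5 at locus 8.

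The second place begins with locus 87 (27599853 to 27604055), with an FPKM of 90.1 in blood cells, 20.8 in ileum, 14.7 in mammary gland, 4.51 in abomasum, 1.27 in uterus, 0.882 in testes, 0.802 in rumen and 0.358 in frontal cortex. Locus 90 (27646749 to 27655562) stood at 459 in blood cells, 307 in ileum, 235 in abomasum, 198 in mammary gland, 97.0 in uterus, 24.5 in frontal cortex, 23.3 in testes and 23.2 in rumen. Locus 122 (28330538 to 28426385), the neighbour of locus 123, stood at 689 in blood cells, 408 in ileum, 366 in mammary gland, 287 in abomasum, 138 in uterus, 52.6 in rumen, 41.4 in frontal cortex and 34.8 in testes. These loci shared the rank of blood cells as first and ileum as second. Nearer the far end, locus 141 (ENSBTAT00000012533, 28918427 to 28920742) had an FPKM of 1336 in blood cells, 462 in ileum, 56.8 in mammary gland, 39.1 in abomasum, 15.7 in uterus, 7.73 in rumen, 5.93 in testes and 3.74 in frontal cortex. Its gap between these 2 tissues and the rest was the widest of the 20 loci at which blood cells and ileum were highest, with a second value 8.01 times the third on the scale of FPKM + 1.

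**Figure D3:**
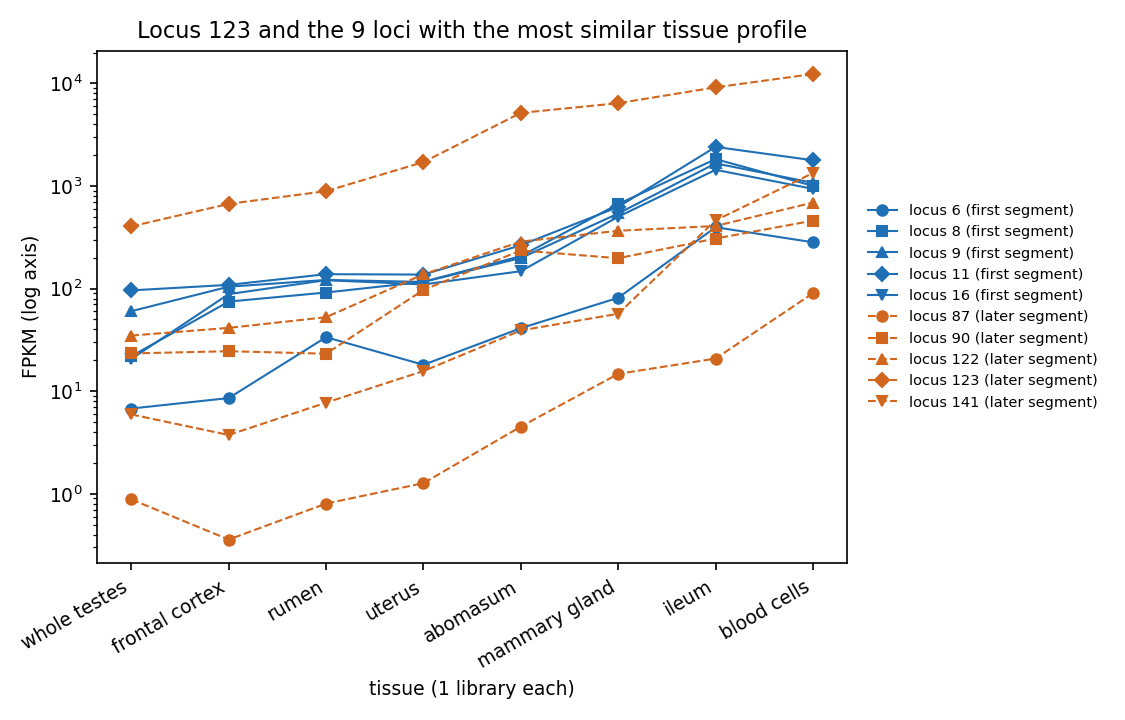
FPKM on a log axis of locus 123 and of the 9 loci with r of at least 0.9 to it, in the library of each tissue. Solid blue lines are the 5 loci of the first segment and dashed orange lines the 5 loci of the later segments. The blue lines peak in ileum and the orange lines in blood cells, while all 10 are lower in testes, frontal cortex and rumen than in either. Like profiles follow in part from the choice of the loci by r to locus 123.

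Within these 10 loci the order of ileum and blood cells split by position. At each of the 5 loci between 25 and 26 Mb ileum was higher, by 1.35 to 1.82 times. At each of the 5 loci between 27 and 29 Mb blood cells were higher, by 1.35 to 4.33 times. After rescaling of the libraries to a common median the split stayed, with ratios of 1.49 to 2.01 and of 1.22 to 3.92. Over the 10666 named loci expressed in both tissues the median ratio of blood cells to ileum was 1.17, and over the 79 such members it was 1.21. In mammary gland, abomasum and uterus the 10 loci held intermediate ranks, with mammary gland at rank 3 or 4 at each of them. Whole testes ranked last at 7 of the 10, frontal cortex at 2 and rumen at 1.

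Across all members, blood cells and ileum were the 2 highest tissues at 20 of the 118 expressed loci (16.9%), against 5.83% of all expressed named loci and 6.44% in the rest of chromosome 23. Beside the 10 loci above, these included loci 75, 77 and 78, which share the span from 27491123 to 27531874. Locus 77 stood at 239 in blood cells and 189 in ileum, then 111 in testes, 31.5 in mammary gland and 26.8 in frontal cortex, with 5.80 to 14.0 in the remaining tissues. Locus 108 (28127368 to 28137021) stood at 155 in blood cells and 64.2 in ileum, and between 9.14 and 21.1 elsewhere. Locus 137 (28813848 to 28847674) stood at 187 in ileum and 176 in blood cells, then 63.8 in abomasum, and between 2.68 and 8.38 in the remaining tissues. In blood cells the level exceeded that in ileum at 0 of the 5 such loci from 25 to 26 Mb, at all 8 from 27 to 28 Mb and at 6 of 7 from 28 to 29 Mb. Among loci expressed in both tissues, blood cells were higher at 59.5% of the members and at 60.6% of all named loci. Of the 20 loci, 11 have a span of their own, and the others share a span and may share reads.

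By tissue of the highest level, 31 of the 118 expressed members (26.3%) peaked in blood cells, against 15.1% of all expressed named loci, and 18 (15.3%) in ileum, against 4.6%. Testes led at 26 members (22.0%), against 30.8%. Frontal cortex and rumen led at 12 each (10.2%), against 16.0% and 12.1%. Abomasum led at 10 (8.47%, against 9.16%), uterus at 7 (5.93%, against 7.46%) and mammary gland at 2 (1.69%, against 4.77%). Ileum and blood cells were thus the tissues with a larger share than over all named loci. Which of these 2 tissues was counted depended on both libraries, and without blood cells ileum led at 32 members. The count of 2 for mammary gland was 5 without testes, 5 without rumen, and 4 without blood cells or after rescaling of the libraries.

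**Figure D4:**
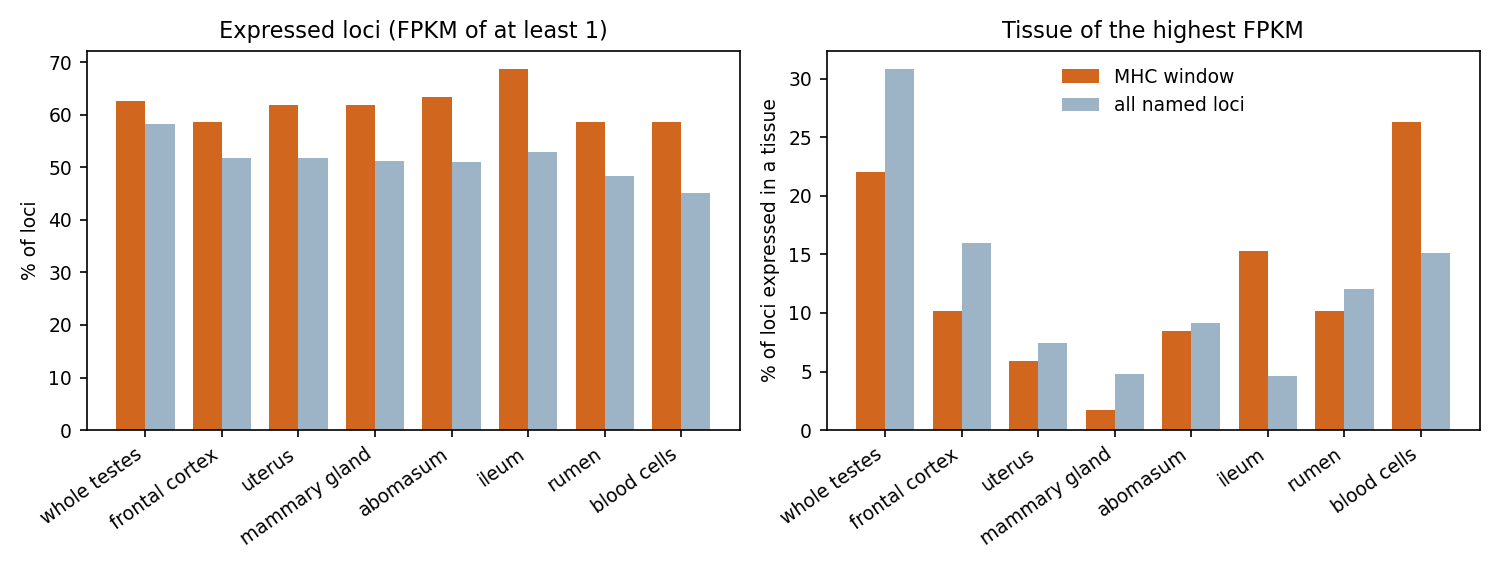
Left, percentage of loci reaching 1 FPKM in the library of each tissue, for the 147 members and for all 24886 named loci. Right, percentage of the expressed loci whose highest FPKM fell in each tissue, for 118 members and 17484 named loci. Blood cells (26.3% against 15.1%) and ileum (15.3% against 4.6%) stand above all named loci on the right.

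Loci that stood apart in 1 tissue were found by a fixed rule of size, 1 FPKM or more and, after adding 1, a level 5 times or more above the tissue ranked next. Folds of this kind understate the difference for low loci. The rule called 5 members in ileum (3.40%, against 0.41% of all named loci), 5 in frontal cortex (3.40%, against 2.41%) and 4 in testes (2.72%, against 6.61%). It called 3 in rumen (2.04%, against 0.763%) and 3 in blood cells (2.04%, against 0.932%). No member was called in uterus, mammary gland or abomasum, where 0.402%, 0.217% and 0.386% of all named loci were. These counts depended on single libraries. Without ileum the rule called 6 members in abomasum and 7 in blood cells, without blood cells it called 7 in testes, and without uterus or abomasum it called 1 in the other of them. Over loci with or without a gene entry it called 8 in testes, 6 in abomasum and 14 in ileum. Of the 24886 named loci, 12.1% were called in some tissue, against 20 of the 147 members. At this fold the call in ileum was thus more frequent than over all named loci and that in testes less frequent, on counts of at most 5. A fold of 2 called 14 members in testes, 11 in blood cells and 7 in ileum. A fold of 10 called 2, 1 and 3. Shares over all named loci were not computed for these folds.

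Of the ileum loci, 4 start between 25 and 26 Mb and 1 between 26 and 27 Mb. Locus 12 (25607551 to 25632715) had an FPKM of 71.1 in ileum and 1.49 in testes, with at most 0.0672 in the other tissues. Locus 14 (25632771 to 25643526) had 68.3 in ileum and 9.69 in abomasum, and locus 15 (25648612 to 25656498) had 81.9 and 14.95, with less than 0.1 FPKM elsewhere for both. Locus 13, which has the span and the identifier of locus 12, stood at 5.36 in testes, 2.35 in ileum and 0 in the other libraries, so the level of locus 12 is uncertain. Loci 12, 14 and 15 lie between the high loci 11 and 16, yet blood cells, at 0 to 0.0427 FPKM, and mammary gland were near or at 0 there. Locus 17 (25904156 to 26163627) was listed at 91.8 in ileum and at 0 in the 7 other libraries, and locus 20 (26687322 to 26691445) at 17.9 in ileum and at 0 elsewhere. The span of locus 17 is long and shared with a second locus of the same identifier that was listed at 0 in all libraries, so its level is uncertain too.

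The frontal cortex loci lay in both later segments. Locus 136 (28775533 to 28803899) had an FPKM of 279 in frontal cortex, between 31.6 and 36.9 in testes, uterus and mammary gland, between 10.5 and 19.9 in ileum, abomasum and rumen, and 7.56 in blood cells. Its neighbours 134 and 135, which share the span from 28733595 to 28754742, had 114 and 206 in frontal cortex and at most 4.48 and 9.63 elsewhere. These 3 loci thus form a run with the same leading tissue. Locus 82 (27550534 to 27563865) had 188 in frontal cortex, 7.28 in testes and at most 2.196 in the others, and locus 31 (27037358 to 27041692) had 109.9 in frontal cortex, at most 7.98 in the others and was listed at 0 in blood cells. Locus 83, which shares the span of locus 82, had 29.97 in frontal cortex and 10.1 to 31.7 elsewhere, so the preference was not common to the span.

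In testes, locus 54 (27334343 to 27338328) stood at an FPKM of 62.0 and at 0.188 to 0.707 in the other tissues. Locus 7, in the span of loci 6 and 8, was listed at 18.75 in testes and at 0 in the 7 other libraries. Locus 21 (26726416 to 26795344) stood at 13.2 in testes and at most 1.13 elsewhere, and locus 67 (27440120 to 27442830) at 4.03 in testes and 0 elsewhere. A larger group of members was expressed in all tissues and highest in testes without meeting the rule. Locus 72 (27463317 to 27474694) stood at 388 in testes and between 56.0 and 96.3 in the others. Locus 68 (27444962 to 27451565) stood at 278 in testes, 169.9 in rumen and 133 in frontal cortex, and between 69.3 and 103 in the others. The 3 highest members in testes were loci 123, 72 and 68, so that 2 of the 3 differed from those of ileum and blood cells. Testes were nevertheless also the lowest tissue at 23 of the 70 members expressed in all tissues (32.9%, against 19.4% of such loci over all named loci). Uterus was lowest at 13 (18.6%, against 8.63%), frontal cortex at 12 (17.1%, against 23.6%), abomasum at 7 (against 9.54%), blood cells at 6 (8.57%, against 14.3%), rumen at 5 (7.14%, against 12.9%), mammary gland at 3 (4.29%, against 7.39%) and ileum at 1 (1.43%, against 4.26%).

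In rumen, locus 62 (27407610 to 27410285) had an FPKM of 259.5, 42.8 in blood cells, 33.7 in testes and 8.84 in uterus, with less than 1 in frontal cortex and abomasum and 0 in mammary gland and ileum. Locus 104 (28088455 to 28089722) had 222 in rumen, 25.2 in abomasum, 21.4 in ileum and between 2.97 and 11.3 in the others. Locus 94, 1 of 9 loci that share the span from 27658164 to 27871557, had 9.14 in rumen and at most 0.421 elsewhere.

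In blood cells, locus 75, which names 2 transcripts, had an FPKM of 715, against 47.0 in ileum, 35.6 in mammary gland, 24.5 in frontal cortex and 7.08 to 12.7 in the other tissues. Locus 61 (27399254 to 27406360) had 209.8 in blood cells and 34.6 in testes, and between 0.140 and 0.557 in the remaining tissues. Locus 65 (27417683 to 27420641) had 10.9 in blood cells and at most 0.557 elsewhere. Locus 61 shares its span with locus 60, which had its lowest FPKM, 11.9, in blood cells and 32.6 to 101 in the others, so the 2 loci of this span went opposite ways in blood cells.

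**Figure D5:**
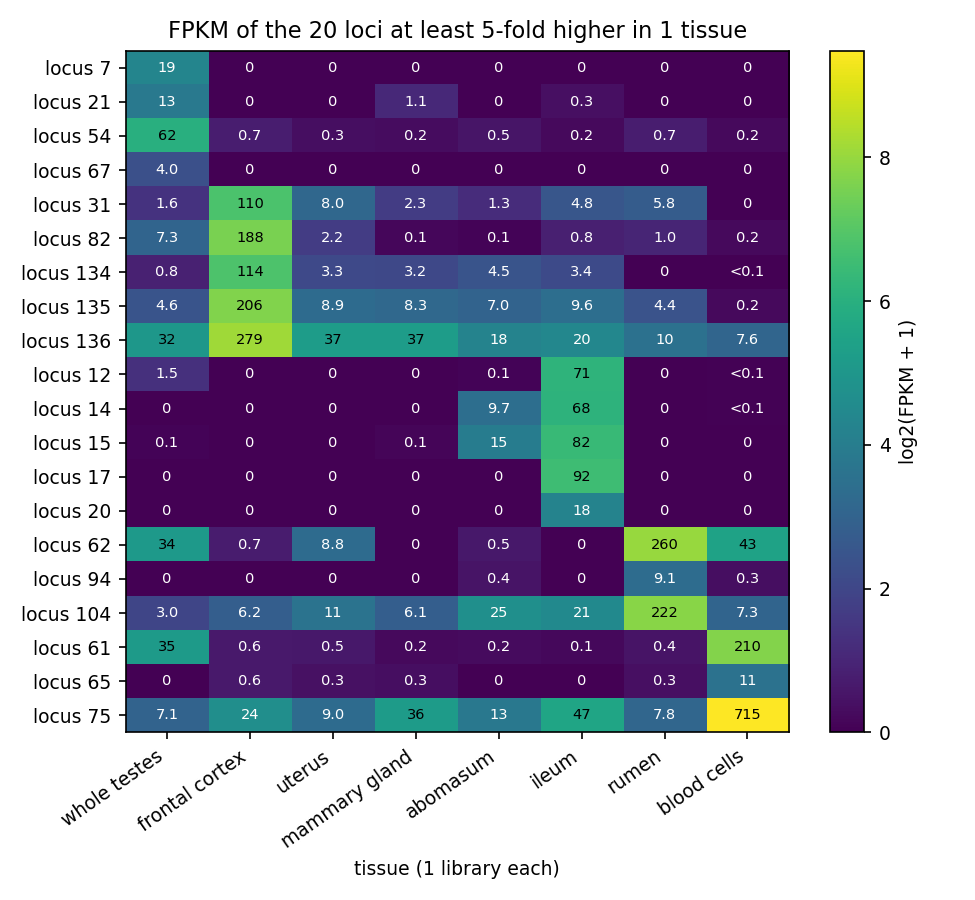
FPKM (printed in each cell) and log2(FPKM + 1) (colour) of the 20 loci called higher in 1 tissue, grouped by that tissue from testes at the top to blood cells at the bottom. Ileum loci 12, 14, 15, 17 and 20 are at or near 0 in blood cells, and frontal cortex loci 134 to 136 are neighbours.

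The opposite call, an FPKM + 1 at least 5 times lower than in every other tissue, was made for 2 members, both in blood cells (1.36%, against 0.98% of all named loci). Elsewhere it was made for 0 members, and for 0.0643% of all named loci in frontal cortex, 0.0281% in testes, 0.00804% each in rumen and uterus, and 0.00402% each in ileum, abomasum and mammary gland. Locus 37 (ENSBTAT00000009019), in the span from 27076280 to 27196805, stood at 0.711 in blood cells and between 25.7 and 199.6 in the other tissues, with its highest level in ileum. Locus 103 (27975361 to 27989666) stood at 0.423 in blood cells, 13.4 in testes and 26.5 to 137 in the others. Loci 34 and 36, in the span of locus 37, were also lowest in blood cells, at 0.0226 and 0.908, against 1.65 to 11.3 and 2.55 to 35.5 elsewhere. Of the 42 members that reached 10 FPKM in each of the 7 other tissues, 0 were listed at 0 in blood cells. Among all named loci 14 of 3743 such loci were, so the count says nothing particular of the members. The table marked 0 comparisons of the members as failed.

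Levels in abomasum were led, after locus 123, by 2 loci between 27 and 28 Mb. Locus 58, in the span from 27374175 to 27398934, had an FPKM of 669 in abomasum, 380 in rumen, 256 in blood cells, 176 in ileum, 131 in uterus, 129.6 in mammary gland, 45.4 in testes and 22.1 in frontal cortex. Locus 44 (27219270 to 27231292) had 517 in abomasum, 180 in ileum, 68.6 in rumen, 43.8 in mammary gland and 1.72 to 4.84 in the others. Both were thus high in tissues of the digestive tract, although locus 58 was also high in blood cells. In uterus, locus 53 (27330885 to 27334105) was second to locus 123, at 317, with 262 in ileum, 129 in rumen, 109.7 in abomasum, 72.8 in frontal cortex, 52.8 in testes, 33.3 in mammary gland and 26.9 in blood cells.

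A level of 10 FPKM in every tissue was reached by 39 members (26.5%), against 13.9% of all named loci. They made up 23 of the 78 loci from 27 to 28 Mb and 11 of the 44 from 28 to 29 Mb. The ratio of the highest to the lowest tissue had a median of 4.01 over these loci and was under 2 at 3 of them. The tau index, which is 0 where all tissues are equal and 1 where a single tissue holds all expression, was lowest at locus 66 (27423437 to 27435718), with 0.0609. Its FPKM was 66.6 in testes, 66.4 in abomasum, 58.9 in frontal cortex, 55.9 in rumen, 51.8 in ileum, 48.5 in blood cells, 44.6 in uterus and 38.2 in mammary gland. Locus 106 (28100874 to 28105350, tau 0.0720) was even at a higher level, from 135 in testes to 324 in rumen and 321 in ileum. Locus 84, in the span from 27565796 to 27578092 (tau 0.0790), ran from 75.3 in testes to 235 in blood cells, and locus 27 (27012066 to 27014380, tau 0.0796) from 40.0 in uterus to 63.7 in frontal cortex. Over the 118 expressed members the median tau was 0.383, against 0.436 over all expressed named loci and 0.448 in the rest of chromosome 23.

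The far end of the region was nearly silent. Of 7 loci of 937 to 982 bases that lie beyond locus 137, 4 were listed at 0 in every library. Locus 140 stayed at 0.434 FPKM or less, and locus 143 was listed at 0.628 in testes and at 0 in the 7 other libraries. Locus 142 (28921928 to 28922867) was the highest of the 7, with an FPKM of 2.21 in blood cells, 1.48 in abomasum, 1.34 in ileum and at most 0.629 in the others. For loci of this length the limit that a count of 0 allows was 0.271 to 0.739 FPKM, depending on the library, and locus 142 lay above its limit in 5 libraries and locus 143 in 1. Between these loci lies locus 141, at 1336 FPKM in blood cells.

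The tissue profiles of neighbours were compared to see whether the region moved as a block. Over 117 pairs of neighbouring expressed members the median r, across the 8 tissues on log2(FPKM + 1), was 0.12, with quartiles of -0.24 and 0.59. Over 17324 other neighbouring pairs it was 0.15, with quartiles of -0.21 and 0.53. The median over the members depended on single libraries, and was 0.25 without blood cells, 0.24 without testes, 0.20 without rumen, 0.18 without uterus and 0.07 without ileum, values that were not recomputed for the other pairs. A profile with r of at least 0.9 was shared by 11 pairs (9.40%, against 5.20% of the other pairs), among them loci 8 and 9, 9 and 11, 14 and 15, 122 and 123, 134 and 135, and 135 and 136. Without overlapping spans, 9 of 86 pairs (10.5%) did so, against 4.68% elsewhere. Both the 11 and the 9 include loci 17 and 20. Each of these was listed at 0 outside ileum, so their r is 1 whatever their levels. Such pairs were not counted apart among the other loci. The pairs share their libraries and depth, and some share reads, so these values are a description.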

How the data were processed

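RNA was extracted with TRIZOL, and libraries were made with the TruSeq RNA Library Prep Kit v2. According to the methods of the study, single-end reads were filtered for adapters, contamination and low quality. Per the labels they were aligned to UMD3.1 with TopHat2 (version 2.0.13), and Cufflinks with default parameters followed. The annotation release is not given in the sources used here. The deposited table has the layout of Cuffdiff and holds FPKM values made by the authors, which their software scales between libraries, for 36801 loci in 28 pairs of tissues. No FPKM differed between pairs (0 values). The fold changes, test statistics, p-values and q-values of the authors' own comparisons were not used.

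Every sample was assigned by its tissue label, and each library was found by its title. Expression was called from 1 FPKM upward, and log values had a pseudocount of 1. Depth was recovered at loci of 88 to 130 bases without a gene entry, from fragment lengths with a mean of 200 and an SD of 80 bases. Of 16 lower limits of fragment length, 87 bases gave whole reads (within 0.03) for 99.8% of these loci in abomasum, and the others for at most 24.1%. Shares rest on named loci unless stated otherwise. Median-of-ratios rescaling and the other alternatives are given at the end. Loci named in the text are the 3 highest in each library, the 2 most enriched in each tissue, the 4 lowest tau and the 3 that most set blood cells and ileum apart, and any further loci were picked with their values known. The region, lists and rules were chosen with earlier results of these data known. Measures were tested on simulated data. Computations used Python 3.11.15, pandas 2.3.3, numpy 2.4.6 and scipy 1.17.1. No sequence is printed, since the reference used here holds none.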

Additional observations from a re-analysis of the deposited data

Results flagged for a closer look

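Loci without a gene entry were left out of the members, and 52 of them lie in the region. The highest value stood at a locus from 28726019 to 28726111, with an FPKM of 22430.4 in abomasum and 0 in the 7 other libraries. At 93 bases this is worth about 12.0 reads, above the limit of 5612 FPKM that a count of 0 allows in that library. In the 7 other libraries a count of 0 allows from 4832 FPKM in rumen to 12403 in mammary gland. The values of 0 there thus do not show that the locus was absent. The next highest locus lay from 28437505 to 28437637, between loci 122 and 123. It had 712 FPKM in blood cells (22.0 reads) and 669 in abomasum, against limits of 97.2 and 87.3 FPKM. Uterus lay above its limit too, at 154 against 115 FPKM, and the other 5 libraries lay at or below theirs. What these loci are was not tested.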

How the results depend on the processing

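Counts and shares were taken to hold within 1.5 times their reported value. All 56 alternative counts of expressed members held. The median tau was 0.273 with a pseudocount of 0.1, 0.436 with no filter on low values, and 0.330 to 0.398 with each library left out in turn. The median r between neighbours was 0.16 with a pseudocount of 0.1, 0.09 for pairs that do not overlap, and 0.07 (without ileum) to 0.25 (without blood cells) with each library left out in turn. Of the other counts, 104 of 112 by leading tissue and 103 of 120 of enriched members held. Of the shares of summed FPKM, 60 of 72 held. These totals, the 56 included, contain outcomes that could not move. Rescaling a library by a single factor cannot change a share within that library. Leaving the shortest loci out of the members changed no count or share, as each was listed at 0 in every library. Enriched counts that stayed at 0, as for mammary gland in each setting, were also scored as held. Where no construction explains a move, the cause was not tested.

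For loci naming a single transcript, which drops locus 123 by construction, the share of the region in blood cells was 1.10%, beside 1.30% in ileum, 0.583% in mammary gland, 0.553% in uterus and 0.537% in abomasum. Without the highest member it was 1.65% in ileum, 1.46% in blood cells, 0.799% in mammary gland and 0.648% in abomasum. With all loci of the window, and a total over all loci, it was 0.444% in abomasum and 0.228% in rumen. There the leading tissue was mammary gland at 4, abomasum at 20 and ileum at 35 loci. In this set 8 loci were enriched in testes, 6 in abomasum and 14 in ileum. Rescaling by median of ratios gave 4 for mammary gland.

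A fold of 2 called 14 loci in testes, 11 in blood cells, 5 in rumen, 3 in abomasum and 1 in uterus, and a fold of 10 called 3 in ileum, 2 in testes, 1 in blood cells and 0 in rumen. With each other library left out in turn, enriched counts ran from 4 to 7 in testes, 3 to 7 in blood cells, 0 to 6 in abomasum and 0 to 1 in uterus. Without ileum, abomasum had 6 and blood cells 7, without blood cells testes had 7, and without uterus or abomasum the other of them had 1. The leading tissue was ileum at 18 to 32 and mammary gland at 2 to 5 loci, with 32 for ileum without blood cells and, for mammary gland, 5 without testes, 5 without rumen and 4 without blood cells.

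Further alternatives were chosen after seeing the data. Members with a span of their own, a smaller set by construction, gave 44 expressed in all tissues, 11 with blood cells and ileum highest, and a share of 0.475% in frontal cortex. With r of at least 0.8 or 0.95, 16 or 2 members were like locus 123, and with each library left out in turn 5 (without frontal cortex) to 12. No paired analysis was possible because there was a single library of each tissue, so that no replicate numbers are shared.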

Other observations

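Several members outside the comparisons above had profiles that a single leading tissue does not describe. Locus 100 (27945289 to 27948479) stood at an FPKM of 128 in abomasum and 106 in uterus, and at 0 to 0.468 in the 6 other tissues. Locus 48 (27291965 to 27305337) was also highest in abomasum, with 158, and had 63.4 in ileum, 27.3 in uterus, 5.45 in mammary gland and at most 1.16 in the others. Loci 23 and 24, which share the span from 26915274 to 26951902, had 29.7 and 95.6 in abomasum and 19.2 and 68.8 in ileum, and at most 2.87 and 7.96 elsewhere. Abomasum and ileum were thus the 2 highest tissues at loci 23, 24 and 48.

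Locus 115 (28196984 to 28211522) had 519 in ileum and 119 in testes, with 33.6 to 46.5 in the other tissues. Locus 74, in the span from 27475555 to 27491016, was listed at 56.2 in ileum, 42.4 in frontal cortex and 42.1 in uterus and at 0 in the 5 other libraries. Locus 73 of the same span ran from 52.1 to 163 in all 8, so the level of locus 74 is uncertain. These loci were chosen after their values were seen.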
